A study of Mus musculus with 6 samples.

Results

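The genes described here mark the B cell follicle and the lymph node: Pax5, Cr2, Fcer2a, Fcmr, Cxcr5, Ltb, Ccl21a, Glycam1 and Chst4. They were chosen by gene name, with earlier results of these data known. The 9 names matched 10 of the 12163 rows in the deposited table because Ccl21a is listed at 2 places in the mouse genome. Mice of the inbred strain C57BL/6, with wild type genotype, gave the fat, and its RNA was sequenced in 3 libraries taken before grafting and 3 taken 7 days after it. The labels give no fat depot, age, sex or graft site, and both groups carry the same strain and genotype. The submitters call the libraries biological replicates, so each p-value reflects the spread between these libraries.

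In a lymph node, B cells gather in follicles around follicular dendritic cells, a stromal network that holds antigen on complement receptors, while T cells occupy the zone next to them. Lymphotoxin made by lymphocytes acts through the lymphotoxin beta receptor and the alternative NF-kB pathway on stromal cells, which then release the chemokines that place each cell type. Lymphocytes enter from the blood through high endothelial venules, whose sulphated sugars slow them on the vessel wall, and chemokines of the Ccl21 kind guide cells that carry the receptor Ccr7. Several fat depots of the mouse hold lymph nodes or smaller clusters of lymphocytes.

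Levels are normalized counts: the reads of a gene after division by a size factor of the library. The listed genes took 13027776 to 15924559 reads per library, and the full depth is unknown because the table holds genes chosen by the authors for a difference between the groups. Fold changes are grafts over before grafting on the scale of log2(normalized count + 1), given with their standard error (SE), and a gene was called at an adjusted p under 0.05 in the limma model. Of 10854 listed genes that passed the filter on low values, 39.2% were called lower and 41.2% higher in the grafts (80.4% in either direction), and their median log2 fold change was 0.28. In bulk tissue, fewer cells of a type and less RNA per cell cannot be told apart.

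Fat before grafting held clear levels of these genes, and the grafts held far less. Of the 9 rows that passed the filter, 8 were called lower in the grafts and 0 higher, beside 39.2% of all tested genes called lower. Because the members were chosen with earlier results known, this count is no test of whether they fell more often than other genes. In 9 of 9 rows every graft lay below every library before grafting, an arrangement found in 48% of tested genes (49.6% had every graft above). For Fcer2a and Chst4 the filter on low values fixed this order, so their separation adds no evidence. Every graft of these genes was under the limit of the filter. They could pass it only because every library before grafting reached that limit. The log2 fold changes ran from -7.76 for Fcer2a to -2.23 for Ltb with a median of -5.27, and 7 of the 9 lay below the 5th percentile of tested genes, -3.85. The tenth row, Ccl21a on chromosome 4, had too few reads to be tested.

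**Figure D1:**
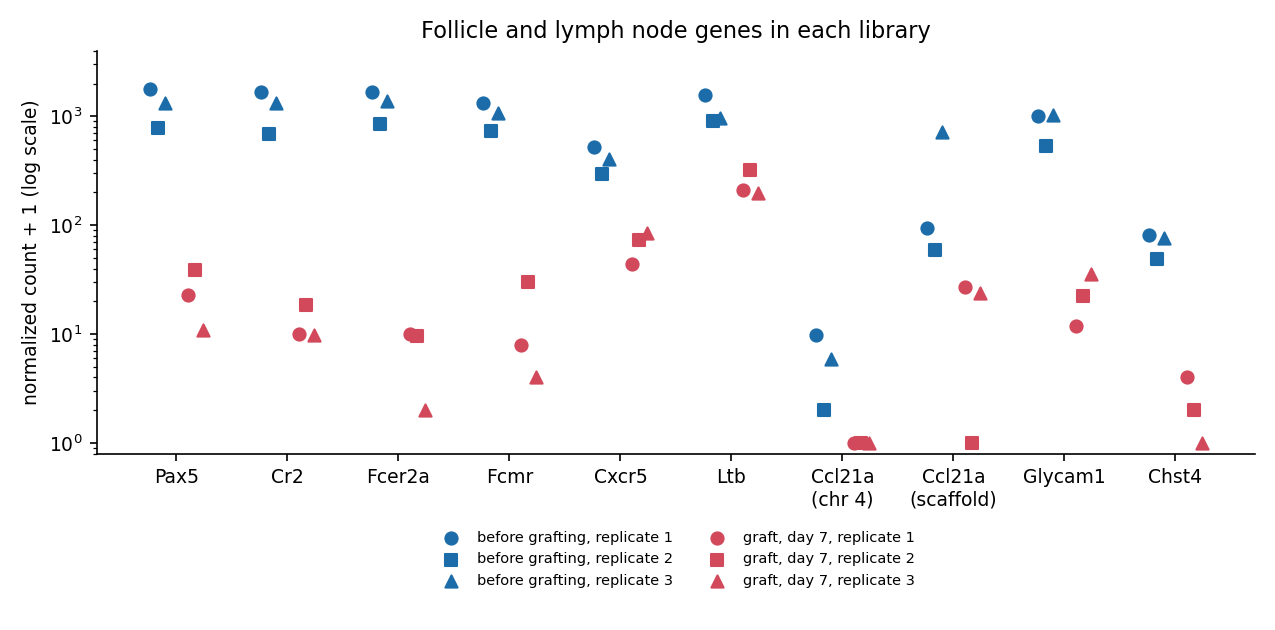
Normalized count plus 1 (log scale) of each gene in the 3 libraries before grafting (blue) and the 3 grafts at day 7 (red), with the marker shape giving the replicate. Every blue point lies above every red point of the same gene, and replicate 2 before grafting (blue square) is the lowest blue point throughout.

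Pax5 (ENSMUSG00000014030), the transcription factor that commits and keeps cells in the B lineage, lies on the minus strand of chr4:44524757-44710487 (GRCm38). Its normalized counts were 1796.6, 786.1 and 1337.7 before grafting and 22.1, 37.8 and 9.9 in the grafts. The lowest library before grafting, replicate 2, was still far above the highest graft, also replicate 2. The means were 1306.8 ± 505.9 and 23.3 ± 14.0 (SD, n = 3 each), and Pax5 fell by 5.86 on the log2 scale (SE 0.47, adjusted p = 7.14e-05). The ratio of the means was 56.2, with a 95% interval of 44.4 to 72.1 (exact binomial, counting error only, as for all such intervals here). A gene on the opposite strand, 5730488B01Rik, overlaps Pax5 by 2311 bases but was listed at 12.8 at most.

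Cr2 (ENSMUSG00000026616; chr1:195136811-195176716, minus strand) encodes complement receptors 1 and 2, carried by mature B cells and by follicular dendritic cells. Its counts were 1660.5, 687.9 and 1316.1 before grafting against 9.0, 17.5 and 8.9 in the grafts, so the groups were well apart. Mean levels were 1221.5 ± 493.2 and 11.8 ± 4.9 (SD, n = 3 each). Cr2 fell by 6.55 on the log2 scale (SE 0.38, adjusted p = 1.3e-05), a ratio of means of 104 (95% interval 74.6 to 148). Bulk RNA gives no split of these reads between B cells and follicular dendritic cells.

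Fcer2a (ENSMUSG00000005540; chr8:3681737-3694175, minus strand), the low-affinity IgE receptor CD23 of follicular B cells, had the lowest log2 fold change of the 9. It was at 1680.2, 846.9 and 1393.8 before grafting, and at 9.0, 8.7 and 1.0 in the grafts, where the 3 values came from 9, 9 and 1 reads. Graft replicate 3 was thus near the limit of detection. Means were 1307.0 ± 423.4 and 6.3 ± 4.6 (SD, n = 3 each), and the fall was 7.76 on the log2 scale (SE 0.61, adjusted p = 6.3e-05). The log2 fold change was -6.99 without graft replicate 3 and -6.91 with a pseudocount of 5. In the fit with all libraries, 15 tested genes had a lower one. The ratio of means was 209, with a 95% interval of 134 to 348.

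The bases just upstream of Fcer2a are shown because it is the most reduced of the genes and the one member promoter with a TATA box in the window searched. The sequence is from RefSeq (GRCm38.p6, chr8:3694176-3694424, minus strand), 5′ to 3′, with the match to TATAAA in capitals.
Fcer2a upstream: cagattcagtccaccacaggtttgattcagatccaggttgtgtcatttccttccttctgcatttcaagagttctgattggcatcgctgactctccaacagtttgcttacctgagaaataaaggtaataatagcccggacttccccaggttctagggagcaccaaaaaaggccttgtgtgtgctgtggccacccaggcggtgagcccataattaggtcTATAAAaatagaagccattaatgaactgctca
The match lies 33 to 28 bases before the annotated start site. RefSeq held 10 promoters for 8 of the 9 symbols, and the 250 bases before each start were searched on both strands for TATAAA, for a kappa B site (3 G, any 2 bases, 2 T, any base and 2 C), for ATGCAAAT (the octamer bound by Oct factors) and for GAGGAAGT (a site of the PU.1 kind). TATAAA was found in 1 of the 10 and in 12.4% of all 32851 promoters searched, the kappa B letters in 1 of the 10 and in 4.11% of all. Neither the octamer (1.6% of all promoters) nor GAGGAAGT (2.44%) was found in the 10. No match overlapped another, and a match or its lack in this window says nothing about which factor acts on a gene.

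Fcmr (ENSMUSG00000042474; chr1:130865669-130880791, plus strand) encodes the Fc receptor for IgM, found mainly on B cells. Counts were 1310.5, 729.4 and 1060.4 before grafting, and 7.0, 29.1 and 3.0 in the grafts. Graft replicate 2 was several times above the other grafts but far below the lowest library before grafting. From 1033.4 ± 291.5 the mean went to 13.0 ± 14.1 (SD, n = 3 each), or to 5.0 without graft replicate 2. The log2 fold change was -6.67 (SE 0.67, adjusted p = 0.000263), and it was -7.48 without graft replicate 2 and -6.02 without graft replicate 3.

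Cxcr5 (ENSMUSG00000047880; chr9:44511787-44561877, minus strand), the chemokine receptor that draws B cells and follicular helper T cells into follicles, was reduced less than the 4 genes above. Its counts were 516.7, 293.8 and 408.2 before grafting and 43.2, 72.7 and 84.1 in the grafts. No graft reached the lowest library before grafting, yet the grafts kept 16.4% of the earlier mean. Means were 406.2 ± 111.5 and 66.7 ± 21.1 (SD, n = 3 each), and Cxcr5 fell by 2.61 on the log2 scale (SE 0.30, adjusted p = 0.000449). Its gene overlaps Bcl9l, on the opposite strand, by 110 bases. Bcl9l took more reads in both groups (normalized counts of 1794.1 to 2335.0 before grafting, 1076.6 to 1162.8 in the grafts). Whether the counting used strand is not given in the sources used here. Reads of that overlap may be shared.

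Ltb (ENSMUSG00000024399; chr17:35194439-35196320, plus strand) encodes lymphotoxin beta, the membrane ligand that B and T cells present to stromal cells. Counts of 1566.8, 908.7 and 972.8 before grafting compared with 210.9, 322.0 and 195.9 in the grafts. Every graft was below every library before grafting, and graft replicate 2 was the highest of the 3. The mean went from 1149.4 ± 362.9 to 242.9 ± 68.9 (SD, n = 3 each), 21.1% of the earlier level, and Ltb fell by 2.23 on the log2 scale (SE 0.25, adjusted p = 0.000439). A microRNA gene, Mir6973a, lies inside Ltb on the same strand (78 bases) and was listed at 15.8 at most.

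The upstream bases of Ltb are shown because it was the one member promoter with a kappa B match, and genes of the NF-kB pathways are counted further on. The stretch is chr17:35194257-35194438, plus strand (RefSeq, GRCm38.p6), with the match in capitals.
Ltb upstream: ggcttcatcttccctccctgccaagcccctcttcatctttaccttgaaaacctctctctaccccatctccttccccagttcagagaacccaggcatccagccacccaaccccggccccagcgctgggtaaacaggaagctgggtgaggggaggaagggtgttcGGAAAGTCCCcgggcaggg
The match lies 87 to 78 bases before the RefSeq start site and fits the kappa B pattern when read on the minus strand. The stretch shown ends just before the gene start given above, which lies upstream of the RefSeq start site. It therefore holds 182 of the 250 bases searched.

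Ltb sits among other genes of the tumour necrosis factor family, and these neighbours moved in different directions. Tnf, the inflammatory cytokine whose gene lies 3061 bases away, was at 82.8, 54.7 and 60.0 before grafting and at 1240.3, 1583.7 and 1163.3 in the grafts. It rose by 4.32 (SE 0.20, adjusted p = 4.18e-06). Lta, the partner subunit of Ltb in the lymphotoxin heterotrimer, was at 104.5, 30.4 and 72.8 before grafting and at 11.0, 7.8 and 4.9 in the grafts. Lta fell by 2.87 (SE 0.51, adjusted p = 0.00461). Of the other nearby genes plotted, Lst1 (log2 fold change 3.10) and Aif1 (2.48), both expressed by myeloid cells, rose, and Nfkbil1 was not called (0.51, adjusted p = 0.124). These neighbours were picked by position, and Lst1, Aif1 and Nfkbil1 after their values were seen.

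**Figure D2:**
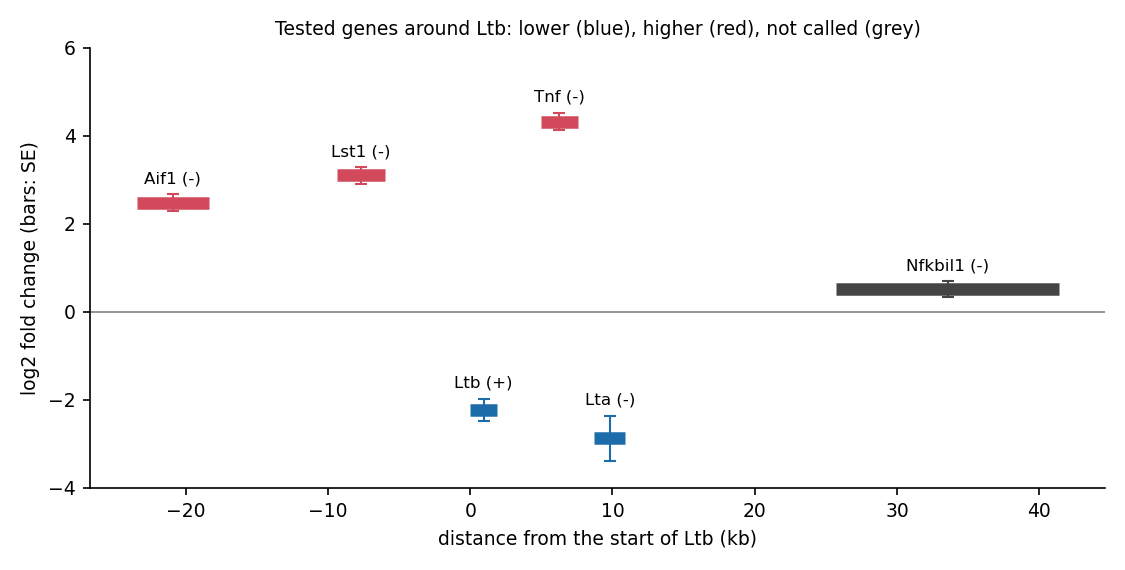
Log2 fold change (y axis, bars SE) of the tested genes around Ltb against distance from the start of Ltb in kilobases (x axis), each bar spanning its gene. Ltb and Lta, at -2.23 and -2.87, lie below 0 on both sides of Tnf at 4.32.

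Glycam1 (ENSMUSG00000022491; chr15:103562759-103565081, minus strand) encodes a secreted mucin of high endothelial venules, and the lactating mammary gland makes it too. It was at 1007.7, 528.8 and 1020.0 before grafting and at 11.0, 21.3 and 34.6 in the grafts. Graft replicate 3 was the highest of the grafts, and the groups did not overlap. Means were 852.2 ± 280.1 and 22.3 ± 11.8 (SD, n = 3 each), and Glycam1 fell by 5.27 on the log2 scale (SE 0.42, adjusted p = 6.44e-05). The ratio of means was 38.2 (95% interval 30.0 to 49.3). Of 15 mammary and other epithelial markers looked for, only Cdh1 was in the table, at 34.1 ± 4.5 before grafting (SD, n = 3); the milk protein genes are outside the table and not analysed here.

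Chst4 (ENSMUSG00000035930; chr8:110029153-110039740, minus strand) encodes a sulphotransferase that adds sulphate to the sugars of these venules. It was at 80.9, 47.6 and 74.8 before grafting, and the grafts were at 3.0, 1.0 and 0.0. The grafts held 4 reads in all, 3 of them in replicate 1. Means were 67.7 ± 17.7 and 1.3 ± 1.5 (SD, n = 3 each; 0.5 without graft replicate 1), and Chst4 fell by 5.07 on the log2 scale (SE 0.55, adjusted p = 0.000325). With so few reads the size depends on the pseudocount: the log2 fold change was -3.52 with a pseudocount of 5 and -5.60 with 0.5. The ratio of means was 51.0, with a wide 95% interval of 19.6 to 189.

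Ccl21a encodes the serine form of the chemokine CCL21, which recruits T cells, dendritic cells and B cells through Ccr7. It has 2 rows in the table, and neither was called. For the scaffold row no sequence was found in the references used here, so its serine form was not checked. The row on an unplaced scaffold (ENSMUSG00000095320; JH584294.1, 121048 to 121713, minus strand) was at 93.7, 57.7 and 717.1 before grafting and at 26.1, 0.0 and 22.8 in the grafts. Replicate 3 before grafting stood far above the other 5 libraries, and graft replicate 2 had 0 reads. The mean before grafting was 289.5 ± 370.7 (SD, n = 3), or 75.7 without replicate 3, and the grafts averaged 16.3 ± 14.2 (SD, n = 3). The log2 fold change was -4.20 with an SE of 1.41 (adjusted p = 0.105). It ran from -5.02 without graft replicate 1 to -2.64 without graft replicate 2, and was -3.11 without replicate 3 before grafting. The chromosome 4 row (ENSMUSG00000094686; chr4:42772860-42773993, minus strand) had 9, 1 and 5 reads before grafting and 0 in each graft. With 3 reads per library taken as the limit that a count of 0 allows, its mean level was at least 1.67-fold lower in the grafts. That bound rests on replicate 1 before grafting, without which the earlier mean was 3.0, next to the limit of 2.96 in the grafts. With the rows summed, a setting added after the data were seen, the log2 fold change was -4.25 (adjusted p = 0.0978).

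Reads of the Ccl21 family are hard to assign because its copies are nearly identical. The annotated copies Ccl21b, Gm10591, Gm13304 and Gm21541 each have a coding sequence of 402 bases that is 99.5% identical to Ccl21a, with the same 2 substitutions, T84A and C194T, counted from 1 at the A of the start codon (the base of Ccl21a first). The longest identical run is 208 bases. Coding bases 74 to 213 of Ccl21a and of Gm10591, from the GENCODE M21 transcripts (GRCm38), hold both substitutions, which are in capitals.
Ccl21a coding: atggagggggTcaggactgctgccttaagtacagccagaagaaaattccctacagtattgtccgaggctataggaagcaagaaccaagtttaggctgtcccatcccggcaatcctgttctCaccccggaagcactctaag
Gm10591 coding: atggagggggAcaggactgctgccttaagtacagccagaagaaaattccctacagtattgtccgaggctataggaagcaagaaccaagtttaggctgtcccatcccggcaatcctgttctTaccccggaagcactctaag
Gm10591, the one of these 4 copies in the table, was at 61.1, 4.1 and 36.4 before grafting and at 12.1, 2.9 and 6.9 in the grafts (log2 fold change -1.62, SE 0.92, adjusted p = 0.599). Its groups overlapped. The split of reads between the rows is uncertain, since no source used here says how the authors' counting shared them.

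**Figure D3:**
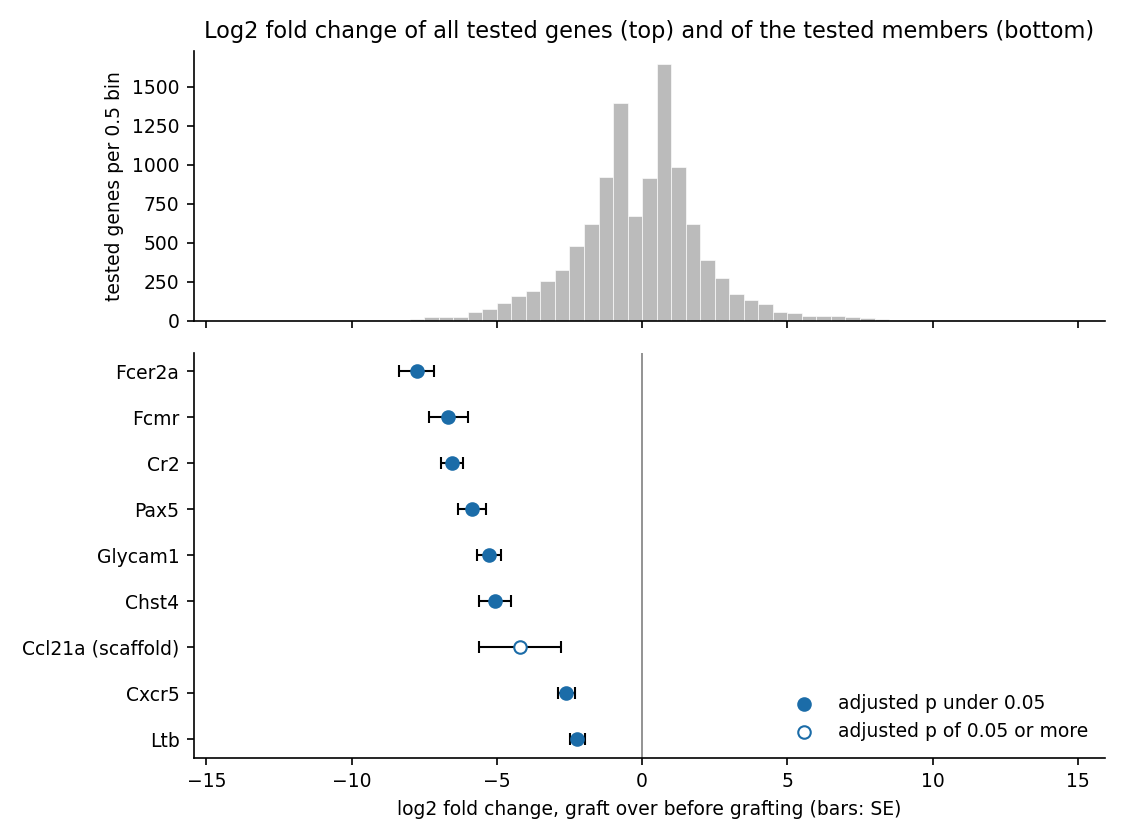
Top, number of tested genes per bin of 0.5 in log2 fold change; bottom, log2 fold change of the 9 tested rows with SE bars, filled where the adjusted p was under 0.05. Of the 8 filled points, 6 lie at -5.07 or lower, Cxcr5 and Ltb lie at -2.61 and -2.23, and Ccl21a on the scaffold, open, has the widest bar.

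Levels can be ranked between genes only per length. Before grafting, the normalized count per kilobase of the deposited gene length was highest for Ltb (758.2 ± 239.4, SD, n = 3), followed by Ccl21a on the scaffold (720.1 ± 922.2), Fcmr (595.3 ± 167.9), Fcer2a (422.7 ± 136.9) and Glycam1 (399.5 ± 131.3). Lower levels per kilobase were found for Cr2 (150.6 ± 60.8), Pax5 (147.6 ± 57.15), Cxcr5 (121.9 ± 33.45), Chst4 (29.69 ± 7.755) and Ccl21a on chromosome 4 (5.673 ± 4.518). Neighbours in this order differed by less than the SD of the higher one, except that Fcmr lay above Fcer2a, Glycam1 above Cr2, Cxcr5 above Chst4, and Chst4 above the chromosome 4 row. In the grafts, Ltb (160.2 ± 45.43 per kilobase) was highest, followed by Ccl21a on the scaffold (40.52 ± 35.34), Cxcr5 (20.01 ± 6.336), Glycam1 (10.47 ± 5.541) and Fcmr (7.506 ± 8.098). Below them were Pax5 (2.628 ± 1.582), Fcer2a (2.022 ± 1.475), Cr2 (1.455 ± 0.604), Chst4 (0.5818 ± 0.674) and Ccl21a on chromosome 4 (0.0). Several neighbours in this order differed by less than the SD of the higher one.

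The replicates within a group shared a pattern across the genes. Replicate 2 before grafting was the lowest of its group in 9 of 9 tested rows, against 32.9% of all tested genes. Its level relative to the mean of replicates 1 and 3 had a median of 0.551 over the tested rows, from 0.142 for Ccl21a on the scaffold to 0.716 for Ltb. The same library was lowest in 15 of 15 B cell surface genes (median 0.551) and 19 of 19 T cell genes (0.69), while adipocyte genes (1.304) and blood endothelial genes (1.203) were higher there and all tested genes were near 1 (1.015). Among the grafts, replicate 2 was the highest in 13 of 15 B cell surface genes, in 19 of 19 T cell genes and in 4 of 9 tested rows, against 30.8% of all tested genes. The part that the amount of lymphoid tissue in each sample had in these values was not tested. Without replicate 2 before grafting, and without each other library in turn, the same number of rows, 8, was called lower.

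Relative to 2 B cell markers in the same library, Ms4a1 and Cd79a, 3 of the 9 tested rows overlapped between the groups. Of the others, 2 lay higher in the grafts and 4 lower. Ms4a1, the CD20 antigen, went from 1890.3, 905.7 and 1711.5 to 27.1, 91.2 and 28.7 (log2 fold change -5.07, SE 0.49, adjusted p = 0.000216). Cd79a, a signalling chain of the B cell receptor, fell by 5.49. Each gene was then taken as a log2 ratio to the mean of these 2 markers within a library, a reference chosen after values were seen. Exact permutation of 3 against 3 libraries cannot go below p = 0.1 (two-sided), and 13 such ratios were compared, so no Benjamini-Hochberg value fell under 0.13.

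Pax5 was the closest to the B cell markers among the genes that lay lower. Its ratio was -0.28, -0.41 and -0.41 before grafting and -0.48, -0.97 and -1.37 in the grafts, a difference of -0.57 (exact permutation p = 0.1) in which the groups nearly met. The difference was -0.37 against Cd79a alone, -2.06 against Cd79b and Cd22, and -0.78 against Ms4a1 alone, where the groups overlapped (exact permutation p = 0.2). Relative to the 2 markers, the difference was -2.48 for Fcer2a, -1.39 for Fcmr and -1.27 for Cr2, with separate groups (exact permutation p = 0.1 each).

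Ltb and Cxcr5 stood out from Ms4a1 and Cd79a in the upward direction. Against Cd79b and Cd22, which fell less, the differences would be smaller. The Ltb ratio was -0.48, -0.20 and -0.87 before grafting and 2.71, 2.08 and 2.81 in the grafts, a difference of 3.05 with no overlap (exact permutation p = 0.1). For Cxcr5 it was -2.07, -1.83 and -2.12 before and 0.45, -0.05 and 1.60 after (difference 2.68, exact permutation p = 0.1). Relative to Cd3d, Cd3e and Cd3g, the T cell receptor chains, the differences were 1.54 for Ltb and 1.16 for Cxcr5, again with no overlap (exact permutation p = 0.1 each).

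Relative to Ms4a1 and Cd79a the 2 venule genes overlapped between the groups, and relative to endothelium they lay lower in the grafts. Against Ms4a1 and Cd79a the difference was 0.02 for Glycam1 and 0.21 for Chst4 (exact permutation p = 1.0 each). Cd79b (-3.93) and Cd22 (-3.67) fell less than Glycam1 (-5.27) and Chst4 (-5.07). Against those markers both differences would be lower, which was not tested. Against Kdr, Tek and Robo4, genes of blood endothelium at large, Glycam1 had ratios of -0.80, -1.94 and -0.85 before grafting and -6.23, -5.13 and -4.31 in the grafts. Its difference was -4.03, and that of Chst4 -3.83, with separate groups in both (exact permutation p = 0.1 each). The Chst4 ratios in the grafts rest on 3, 1 and 0 reads and so depend on the pseudocount. Neither Chst4 difference therefore measures how far it moved relative to these references. Ccl21a on the scaffold gave 1.08 against the B cell markers, with overlap (exact permutation p = 0.8).

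**Figure D4:**
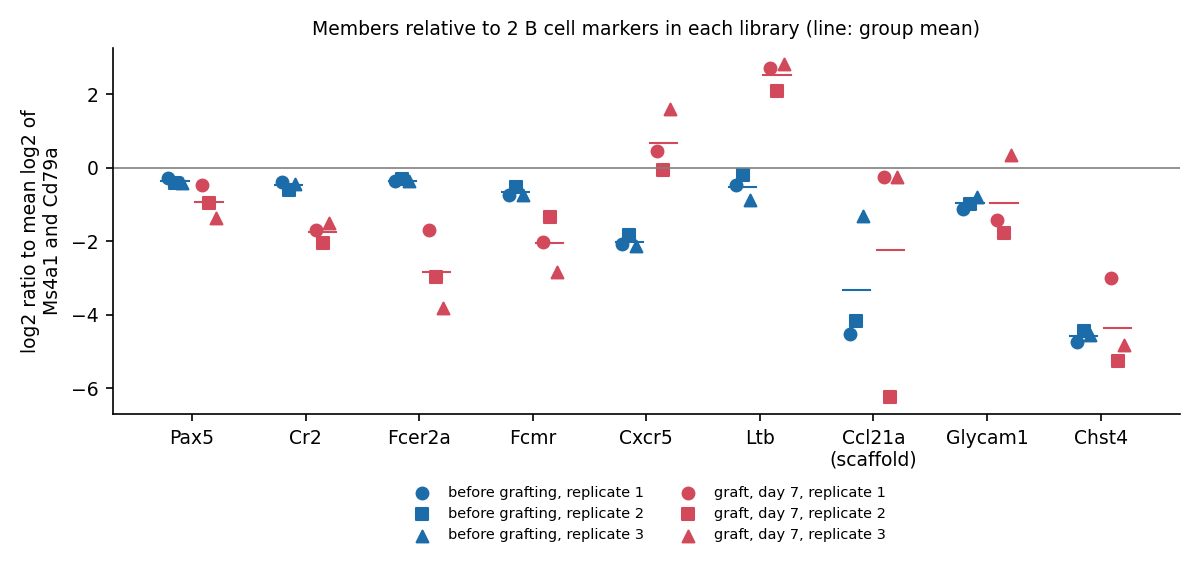
Log2 ratio of each gene to the mean log2 level of Ms4a1 and Cd79a in the same library, before grafting (blue) and in grafts (red), with lines at the group means. Ltb and Cxcr5 lie higher in the grafts, Cr2, Fcer2a and Fcmr lie lower, Pax5 lies lower by a narrow gap, and the groups of Glycam1, Chst4 and Ccl21a overlap.

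Genes of the B cell receptor complex and B cell surface, a list that holds Cr2, Fcer2a and Fcmr, fell almost throughout: 14 of 15 tested genes were called lower and 0 higher, with a median log2 fold change of -5.07. Without the 3 genes already described, 11 of 12 were called lower (median -4.57). The exception, named after its value was seen, was Cd72, a B cell coreceptor that macrophages also carry, with -0.51 (SE 0.24, adjusted p = 0.345). The summed level of all 15 genes was 12047.0 to 24338.6 before grafting and 775.5 to 1287.9 in the grafts. Cd72 alone made up 365.7 to 764.2 of it before grafting and 373.9 to 394.7 in the grafts. Ighm is outside the table and not analysed here. Ighd, the heavy chain of naive follicular B cells, went from 3874.2, 1995.7 and 3698.5 to 64.3, 65.9 and 7.9 (log2 fold change -6.50, SE 0.74, adjusted p = 0.000555); it was named after its value was seen.

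B cell transcription and signalling genes were called lower in 11 of 16 cases and higher in 2, with a median of -2.51. Beside Pax5, Spib (-4.43), a transcription factor of B cells, and Bank1 (-4.34), a scaffold of B cell receptor signalling, fell most. Cd24a (1.72), a surface glycoprotein of many cell types, and Btk (0.84), a kinase of B cells and myeloid cells, rose; neither was called when ribosomal protein genes were held at 0 change (0.97 and 0.10), and Btk was not called without replicate 3 before grafting or with equal listed totals. Ebf1, a B lineage factor that adipocyte precursors also express, fell by 1.26 only (SE 0.10, adjusted p = 5.89e-05), and it was named after its value was seen.

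Plasma cell genes were called lower in 5 of 7 cases and higher in 2 (median -3.23). The immunoglobulin genes Ighg2c (-5.70), Iglc2 (-4.32) and Igha (-3.74) and the transcription regulators Irf4 (-3.23) and Pou2af1 (-2.86) fell, while Sdc1 (4.70), the syndecan of plasma cells and epithelium, and Prdm1 (2.94), a repressor that also acts in myeloid and T cells, rose. Irf4 and Pou2af1 were picked after their values were seen, and Pou2af1 was not called when any 1 of the libraries before grafting, or graft replicate 3, was left out. Of 5 tested germinal centre genes, Gcsam (-3.34), an adaptor of germinal centre B cells, fell. Every graft of Gcsam, and of Ighg2c above, was under the limit of the filter on low values, which fixed the direction of both falls. Bcl2a1b (2.75), S1pr2 (2.68), Fas (1.04) and Bcl6 (0.60), all active outside B cells as well, rose. When ribosomal protein genes were held at 0 change, Fas was not called and Bcl6 turned to -0.15; Bcl6 was also not called under any other scaling, or without replicate 2 or 3 of either group.

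The lymphotoxin and tumour necrosis factor axis of the follicle moved both ways, with 4 of 12 tested genes called lower and 8 higher (median 0.97). The 4 were ligands: Cd40lg (-3.15), the T cell signal to B cells, Lta (-2.87), Ltb (-2.23) and Tnfsf13b (-0.97), the B cell survival factor BAFF. Every graft of Cd40lg was under the limit of the filter on low values, which fixed the direction of its fall. Tnfsf13b went from 228.8, 127.6 and 165.3 to 92.4, 91.2 and 74.2 (adjusted p = 0.0286), and was not called without replicate 1 or 3 before grafting or without graft replicate 2 or 3. Tnf (4.32), Tnfsf11 (3.78), the ligand RANKL, and Tnfrsf1b (3.50), a receptor of Tnf, rose most, and Tnfsf14 (3.10), the lymphocyte ligand LIGHT of the same receptor as Ltb, rose as well (picked after its value was seen). Ltbr, the receptor of lymphotoxin beta, went from 924.9, 1050.5 and 894.1 to 1893.1, 1619.5 and 1582.7, with no overlap between the groups. Ltbr rose by 0.83 (SE 0.11, adjusted p = 0.00104), but by 0.08 and without a call when scaled to ribosomal protein genes, a scaling that left 5 of the 8 called higher.

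Genes of the alternative NF-kB pathway, the route downstream of the lymphotoxin beta receptor, were called higher in 4 of 7 cases and lower in 1, with a median of 0.79. Birc3 (1.87), Nfkb2 (1.65), Relb (1.24) and Traf3 (0.79) rose, and Birc2, an inhibitor of apoptosis protein in the same complex, fell by 0.63. Map3k14, the kinase NIK that starts the pathway, had a value of 0.51 (adjusted p = 0.056), and -0.24 when scaled to ribosomal protein genes. That scaling left 2 of the 4 rises called, and Relb (0.49) and Traf3 (0.04) lost their calls.

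**Figure D5:**
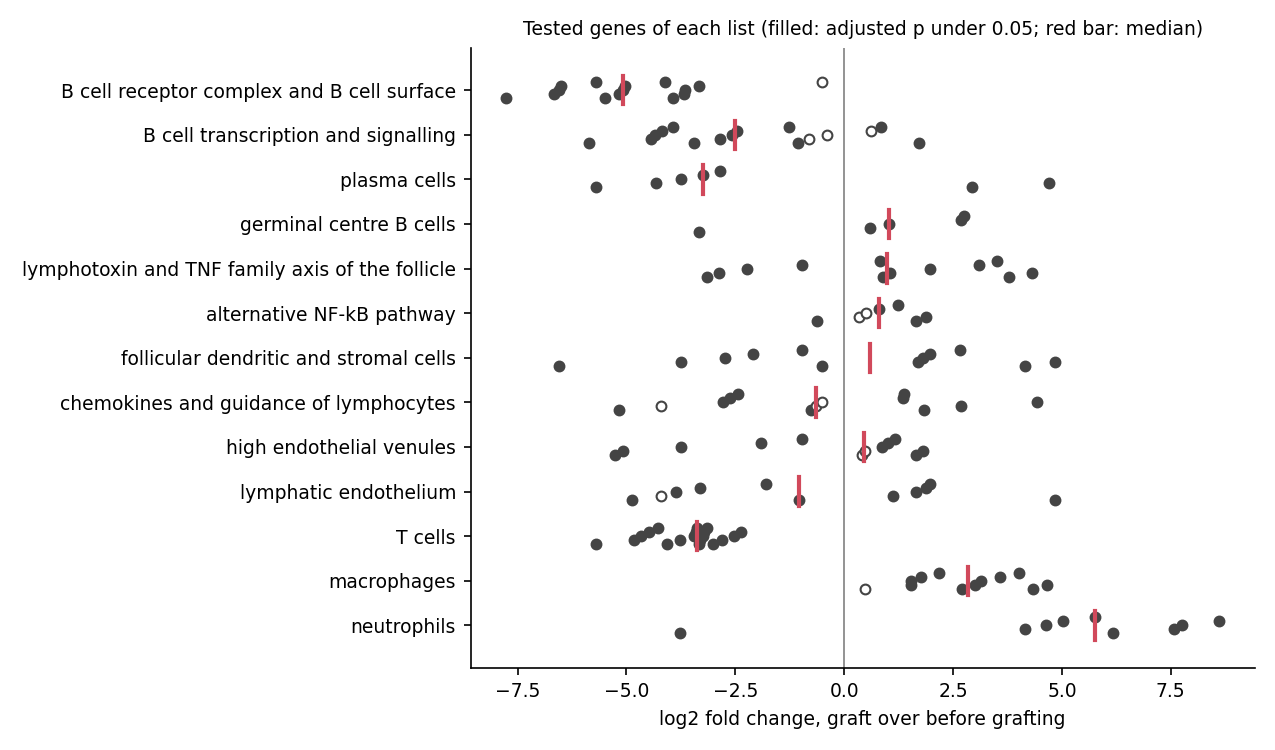
Log2 fold change of each tested gene (points, filled where the adjusted p was under 0.05) in 13 gene lists, with a red bar at the list median. B cell surface genes and T cell genes lie below 0, macrophage and most neutrophil genes above 0, and the stromal, high endothelial venule, lymphatic and lymphotoxin lists on both sides. Of all tested genes, 39.2% were called lower and 41.2% higher.

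Follicular dendritic and stromal genes divided evenly, with 6 of 12 called lower and 6 higher (median 0.58), beside 39.2% and 41.2% of all tested genes. Beside Cr2, Enpp2 (-3.75), the lysophospholipase autotaxin made by high endothelial venules and also by adipocytes, and Clu (-2.74), the chaperone clusterin, fell most. Pdpn (4.85), Bst1 (4.15) and Fcgr2b (2.67) rose most; fibroblasts and myeloid cells also express them. Cxcl13, the ligand of Cxcr5, and Ccl19, Madcam1 and Mfge8 are outside the table and not analysed here. Cr2, and Fcamr described further on, are made by B cells as well as by follicular dendritic cells. Without Cr2, 5 of the 11 tested genes of this list were called lower, Clu among them, and 6 higher, Fcgr2b among them. The word follicle thus rests here on B cell genes.

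Chemokine and guidance genes were called lower in 5 of 13 cases and higher in 5 (median -0.64). Both shares were near those of all tested genes, 39.2% lower and 41.2% higher. Ccr6 (-5.16), Ccr7 (-2.78) and Cxcr5 (-2.61), receptors of lymphocytes, had the lowest values among those called, and Cyp7b1 (4.43), S1pr2 (2.68) and Cxcr4 (1.84) the highest. Ccr7, the receptor of Ccl21a, was at 877.6, 554.1 and 784.9 before grafting and at 69.3, 332.6 and 49.5 in the grafts. Graft replicate 2 was the highest graft but below every library before grafting (SE 0.64, adjusted p = 0.0203), and Ccr7 was not called when any 1 of the libraries before grafting, or graft replicate 1, was left out.

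High endothelial venule genes were called lower in 5 of 12 cases and higher in 5 (median 0.45). These shares were near those of all tested genes, 39.2% lower and 41.2% higher. Glycam1, Chst4 and Enpp2 fell most, and Fut4 (1.66), Icam1 (1.80) and Gcnt1 (1.17), an adhesion molecule and sugar-building enzymes made by many leukocytes and endothelia, rose most. Scaled to ribosomal protein genes, 1 of the 5 rises was called. Fut7 and Madcam1 are outside the table and not analysed here. In lymphatic endothelium, 5 of 11 tested genes were called lower, led by Mmrn1 (-4.87), Prox1 (-3.86) and Lyve1 (-3.31), and 5 higher, led by Pdpn (4.85), Vegfc (1.97) and Nrp2 (1.89). Without replicate 1, or without replicate 3, before grafting, 3 of those 5 were called lower, and Mmrn1 was not called when any 1 of the libraries before grafting was left out, or with equal listed totals. Among the 5 called higher, Itga9 (1.12) lost its call when scaled to ribosomal protein genes. Foxc2 (1.64) was not called under any of the 4 scalings. Nor was it called when any 1 of the libraries before grafting, or graft replicate 1 or 2, was left out. Itga9 and Foxc2 were picked after their values were seen.

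Other cell types changed in the same samples. T cell genes were called lower in 19 of 19 cases (median -3.37), with Cd8b1 (-5.71), Cd8a (-4.83) and Lef1 (-4.66) at the bottom, and Cd3e went from 726.7, 445.7 and 562.6 to 8.0, 51.4 and 34.6. Their summed level was 8928.9 to 14964.3 before grafting and 672.9 to 1670.9 in the grafts. Adipocyte genes were called lower in 10 of 10 cases (median -5.17), led by Adrb3 (-9.49) and Lep (-8.65), and Adipoq, the adipokine adiponectin, fell by 6.68 (SE 0.48, adjusted p = 4.8e-05). Macrophage genes rose in 11 of 12 cases (summed level 29013.2 to 33672.5 before grafting, 213148.2 to 232705.7 in the grafts) and neutrophil genes in 8 of 9 (800.3 to 969.9 before, 73962.1 to 114427.9 after). Msr1 (4.66), Itgam (4.33) and Cd14 (4.02) led the macrophage list, and Lcn2 (8.61), S100a8 (7.76) and S100a9 (7.58) the neutrophil list, in which Elane (-3.76) fell. Every graft of Elane was under the limit of the filter on low values, which fixed the direction of its fall. Blood endothelial genes were called lower in 4 of 6 cases and higher in 0, led by Kdr (-1.40), Sox17 (-1.18) and Robo4 (-1.17). Of 8 housekeeping genes 6 were called higher, led by Pgk1 (2.45), Gusb (1.47) and Actb (1.03), and Sdha (-1.75) lower; scaled to ribosomal protein genes, 2 were called higher and 2 lower. The part of this change in the makeup of the tissue in the levels of the follicle genes was not tested.

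The genes most like the described ones were ranked by the root mean square difference, over the 6 libraries, between each gene's centred log2 level and the median centred level of the 9 tested rows. The first 4 were Timd4 (0.261), a receptor for phosphatidylserine on macrophages, Cd79a (0.269) and the predicted genes Gm15848 (0.282) and Gm42870 (0.317). Every graft of Gm15848 and Gm42870 was under the limit of the filter on low values, which fixed their direction. Timd4 was at 1452.4, 936.0 and 1372.2 before grafting and at 34.1, 33.0 and 12.9 in the grafts (log2 fold change -5.60, SE 0.37, adjusted p = 2.42e-05). The described genes themselves lay at 0.34 (Pax5) to 2.122 (Ccl21a on the scaffold) from that median, and Cxcr5 and Ltb at 1.614 and 1.747.

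Genes within 100 kb of the members were looked at by position. Next to Fcmr, Fcamr, an Fc receptor for IgA and IgM made by follicular dendritic and B cells, was at 133.1, 79.0 and 100.3 before grafting and at 3.0, 0.0 and 1.0 in the grafts. It fell by 5.69 (SE 0.54, adjusted p = 0.000148), and Gm15848, which is in the same interval, fell by 5.56. Every graft of Fcamr and Gm15848 was under the limit of the filter on low values, which fixed the direction of both falls. Near Fcer2a, Retn, the adipokine resistin, fell by 4.71 and Mcemp1, a mast cell and myeloid membrane protein, rose by 5.04. Beside Glycam1, Ppp1r1a, a phosphatase inhibitor, fell by 6.16, and Pde1b, a phosphodiesterase, rose by 1.86. Among the tested neighbours of Pax5 and Cr2, Zcchc7 was at -0.72 and Cd46 at -0.94. Those named in this paragraph were picked after their values were seen.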

How the data were processed

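Total RNA from fat of 6 samples (3 before grafting, 3 at day 7 after it) had been sequenced on an Illumina platform, per the labels' protocols. The deposited signal is a normalized count per gene: in each library 100% of the authors' values were multiples of a single step (0.96979 to 1.01304) to within 0.01 reads, from which the reads printed here and their intervals were derived. The steps of graft replicates 1 (1.00432) and 3 (0.98919) are so close to 1 that reads recovered there are less certain. The deposited gene lengths, in bases (unit: other), served for levels per kilobase. Bowtie 0.12.2 and HISAT2 2.0.5 are named in the submitters' processing notes, with the builds mm8 and mm9, but coordinates match GRCm38: 12158 of 12163 identifiers are in GENCODE M21, and 12036 genes lie within 1000 bases of it. No source used here gives the counter, the strand setting or the gene filter.

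The listed genes had been selected on the outcome: the unadjusted p was under 0.05 for 10772 of the 10854 genes tested. Variances were therefore estimated from selected genes. A limma model (version 3.58.1, R 4.3.3; trend, robust, two-sided) was fitted to log2(value + 1) on group alone. Genes entered it if 3 or more libraries had 10 or more. A gene under 10 in every library of 1 group could enter only through the other group, which fixed its direction. Benjamini-Hochberg adjustment ran over 55536 annotated genes, and unlisted ones were entered as showing no difference. The script was tested on simulated data. Python 3.11.15, numpy 2.4.6, pandas 2.3.3, scipy 1.17.1 and matplotlib 3.10.9 were used for tables, exact tests and plots.

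The members, the 17 gene lists and the tests were chosen with earlier results of these data known. Genes named were the 9 members, up to 3 called lower and 3 called higher with the largest change in each list, 18 genes fixed by name, the 5 most alike in pattern, and those said in the text to be picked after their values were seen. A few genes named by this rule are not reported here. Replicates are numbered in accession order. Alternatives covered the pseudocount, the filter, 4 scalings, the adjustment, a replicate block and leaving out each library. Intervals and floors cover counting error only, because the reads carry no molecular identifiers in the sources used here. Promoters are from RefSeq (GRCm38.p6) and coding sequences from GENCODE M21; an entry for Cxcr5 was not used here.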

Additional observations from a re-analysis of the deposited data

How the results depend on the processing

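Under all 16 other settings the tested rows kept their direction, 0 were called higher, and the 8 called rows stayed called. The number called was 9 with no filter on low values (the added one being Ccl21a on chromosome 4, adjusted p = 0.0348), with adjustment over tested listed genes only, and with a replicate block, where Ccl21a on the scaffold passed the threshold (adjusted p = 0.0205 and 0.0203). Leaving out each library gave 8 to 8 members called, 3323 to 4014 genes called lower, 3752 to 4130 called higher and 143 to 149 list genes called (152 with all libraries).

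Over all tested genes, 4250 were called lower and 4477 higher. Setting 78 ribosomal protein genes to no change moved the median log2 fold change from 0.28 to -0.46 and gave 5467 lower and 1930 higher. The split was 5047 and 3563 with equal upper quartiles, 4780 and 3700 with equal listed totals, and 4827 and 3901 with median ratios, with medians of 0.09, 0.15 and 0.17. Under these 4 scalings, log2 fold changes ran from -2.97 to -2.34 for Ltb and from -8.43 to -7.86 for Fcer2a, with the lowest values under the scaling to ribosomal protein genes.

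Same-numbered libraries did not deviate together (correlations after removing group means -0.157, -0.127 and 0.041), so the replicate block pairs numbers only; it gave 3644 genes called lower and 3912 higher and 9 members called lower. Count models on recovered reads, planned as edgeR and DESeq2 fits, were not run, because the steps of graft replicates 1 and 3 lie close to 1, where multiples of a step are harder to tell from whole numbers. Depth limits the grafts' levels of Fcer2a and Chst4, which rest on 0 to 9 reads per library.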
